A study of Mus musculus with 6 samples.

Results

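The clustered histone genes are the multicopy genes that supply the core histones H2A, H2B, H3 and H4 and the linker histone H1 while DNA is copied. They were taken as every row of the deposited count table whose symbol begins with *Hist1h*, *Hist2h*, *Hist3h* or *Hist4h*, which gave 56 of the 13809 genes. A further 11 genes of variant histones, whose symbols begin with *H2af*, *H3f3* or *H1f*, were taken beside them for comparison. All 67 passed the filter on low counts and were among the 13804 genes tested.

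The data were ribosomal RNA-depleted total RNA libraries of hearts at embryonic day 18.5 from 3 wildtype (WT) and 3 *Pkm1* knockout (KO) mouse embryos. The labels say heart, and the study's account of its results narrows the tissue to the ventricles. *Pkm1* is the splice form of the pyruvate kinase gene *Pkm* made in muscle, and the comparison asks what its loss does to the heart transcriptome before birth. The KO carried a small CRISPR/Cas9 deletion in the exon that only *Pkm1* uses, on a background founded from BDF1 (C57BL/6J × DBA/2) zygotes. The deletion was in the germline, so every cell of the embryo and not only cardiomyocytes carried it, and WT embryos came from the same kind of heterozygous intercross and carried no engineered allele.

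Histones package DNA into nucleosomes, each an octamer of H2A, H2B, H3 and H4 with H1 bound to the linker. Messages of the clustered genes are made in S phase and, unlike nearly all other mRNAs, end in a short stem-loop instead of a poly(A) tail. The stem-loop is bound by SLBP and governs the rapid decay of the message when DNA synthesis stops. The U7 snRNP directs the cut just behind it. Variant histones such as H3.3 (*H3f3a*, *H3f3b*), H2A.Z (*H2afz*, *H2afv*) and H1.0 (*H1f0*) come from genes outside the clusters with polyadenylated messages and are made outside S phase too, and H3.3 and H1.0 accumulate as cells leave the cycle. Depletion of ribosomal RNA keeps messages without a tail that poly(A) selection would lose, so both classes can be counted in the same libraries.

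The sequence that sets the clustered genes apart is this stem-loop, and 5 examples are given because the bases that follow it in the annotated message are described with the results below. It was searched in the sense strand of the annotated transcripts (GENCODE M21, mouse build GRCm38) as a 6-base arm beginning GG, a 4-base loop beginning TT and a second 6-base arm pairing with the first at every position. It was found in 36 of the 56 clustered genes and in 1 of the 11 variants (*H2afx*), against 87 of 13232 other genes of the table (0.657%). The capitals mark the arms and loop, the DNA letters stand for the transcript, and the flanking bases are in lower case.
Hist1h2ag: acaaaGGCTCTTTTCAGAGCCaccta
Hist1h4h: ccaaaGGCCCTTTTCAGGGCCgccca
Hist1h1c: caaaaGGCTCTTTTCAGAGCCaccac
Hist1h1e: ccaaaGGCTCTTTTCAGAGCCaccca
H2afx: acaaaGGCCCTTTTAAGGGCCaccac
In *Hist1h2ag* the stem-loop lay at bases 447 to 462 of a 485-base transcript, and in *Hist1h4h* at bases 409 to 424 of 470, so both annotated messages stopped just behind it. In *Hist1h1c* it lay at bases 705 to 720 of 1560, in *Hist1h1e* at bases 762 to 777 of 1930 and in *H2afx* at bases 547 to 562 of 1384, so these annotated messages ran on for 840, 1153 and 822 bases.

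Promoters are shown for 4 clustered genes that span the range of response and motif content, as RefSeq gives them for GRCm38.p6, from 250 bases before the start to 50 bases inside the first exon. Capitals mark CCAAT, the box bound by NFY, read as ATTGG on the other strand, and the octamer ATTTGCAT bound by OCT1, read as ATGCAAAT on the other strand. The *Hist1h2ag* window (chr13:22042900-22043199, minus strand) covers nearly all of the stretch towards the start of its divergent neighbour *Hist1h2bj* and held 5 CCAAT boxes. The *Hist1h2ae* window (chr13:23571171-23571470, minus strand) held 2 CCAAT boxes and 1 octamer. The *Hist1h1e* window (chr13:23622509-23622808, minus strand) held 1 CCAAT box, and the *Hist1h4h* window (chr13:23530794-23531093, plus strand) held neither motif.
Hist1h2ag: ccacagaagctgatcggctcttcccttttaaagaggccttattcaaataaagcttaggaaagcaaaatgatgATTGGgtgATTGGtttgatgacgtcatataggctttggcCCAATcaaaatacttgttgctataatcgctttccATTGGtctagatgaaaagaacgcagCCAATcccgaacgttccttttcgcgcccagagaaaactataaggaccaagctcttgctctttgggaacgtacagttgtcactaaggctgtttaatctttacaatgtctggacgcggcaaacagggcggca
Hist1h2ae: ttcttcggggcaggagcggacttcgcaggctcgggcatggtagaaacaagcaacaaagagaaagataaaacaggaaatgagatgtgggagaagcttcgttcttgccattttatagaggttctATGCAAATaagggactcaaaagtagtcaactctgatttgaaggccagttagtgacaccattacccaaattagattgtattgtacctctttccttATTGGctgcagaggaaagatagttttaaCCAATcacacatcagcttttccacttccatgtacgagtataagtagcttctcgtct
Hist1h1e: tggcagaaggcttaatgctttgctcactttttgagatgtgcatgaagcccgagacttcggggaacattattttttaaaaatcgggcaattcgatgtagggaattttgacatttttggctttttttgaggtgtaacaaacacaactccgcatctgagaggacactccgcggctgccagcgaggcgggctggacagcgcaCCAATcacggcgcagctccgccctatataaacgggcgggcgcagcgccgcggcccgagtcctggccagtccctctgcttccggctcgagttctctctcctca
Hist1h4h: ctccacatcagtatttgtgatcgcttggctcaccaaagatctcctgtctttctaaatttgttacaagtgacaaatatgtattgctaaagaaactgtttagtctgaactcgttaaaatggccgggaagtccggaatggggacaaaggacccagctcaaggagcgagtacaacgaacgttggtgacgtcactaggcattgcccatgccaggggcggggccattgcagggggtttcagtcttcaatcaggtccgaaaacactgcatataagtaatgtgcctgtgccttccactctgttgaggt

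Library totals ran from 15567624 to 19875546 counts, and 3 counts, the limit that a count of 0 allows for counting error, stood for 0.153 to 0.197 CPM. CPM are counts scaled to a common library size, here after TMM normalization, and all levels below are in this unit. *Pkm*, counted over both splice forms, was at 1318 ± 41.1 CPM in WT and 541.9 ± 10.1 in KO hearts (SD, n = 3 each), and it was lower in all 3 KO libraries (log2 -1.28 ± 0.03, adjusted p = 1.5e-23). All 3 WT libraries carried Y-linked transcripts and all 3 KO libraries carried *Xist* (2285 ± 47.6 CPM against 5.26 ± 0.50), so embryo sex and genotype cannot be told apart in any result here. WT c stood apart from WT a and WT b, with a chi-square per degree of freedom of 3.76 and 3.24 against them where WT a and WT b gave 1.56, and results are therefore also given without it. The cardiomyocyte markers *Myh6* and *Tnnt2* stood at 13979 and 4901 CPM in WT hearts. Fewer cells of a type and less RNA per cell cannot be told apart in such bulk tissue.

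Most clustered core histone genes were higher in KO hearts, the clustered H1 genes were divided, and the H1 and H3.3 variant genes were lower. Of the 56 clustered genes 33 rose, 4 fell and 19 did not pass an adjusted p of 0.05, with a median log2 fold change of 0.20. Of the 11 variants none rose and 5 fell, with a median of -0.13, and 4 of the 5 were the H1 and H3.3 genes. Over all genes tested 14.6% rose and 15.7% fell, and their median was 0.00. The rises were small, and only 5 of the 33 reached 1.5-fold. In 34 of the 56 the 3 libraries of one group all lay above the 3 of the other, as they did for 42.4% of all genes. Without WT c the clustered genes that rose numbered 34, of which 31 were among the 33, and those that fell numbered 3. Scaling by library totals without TMM moved the split over all genes to 2911 higher and 1527 lower, from 2011 and 2168, and put the median of all genes at 0.05, and the clustered genes then stood at 36 higher and 3 lower. Of the 37 calls 23 held in each of the 14 alternative settings, 21 of them higher and 2 lower.

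**Figure D1:**
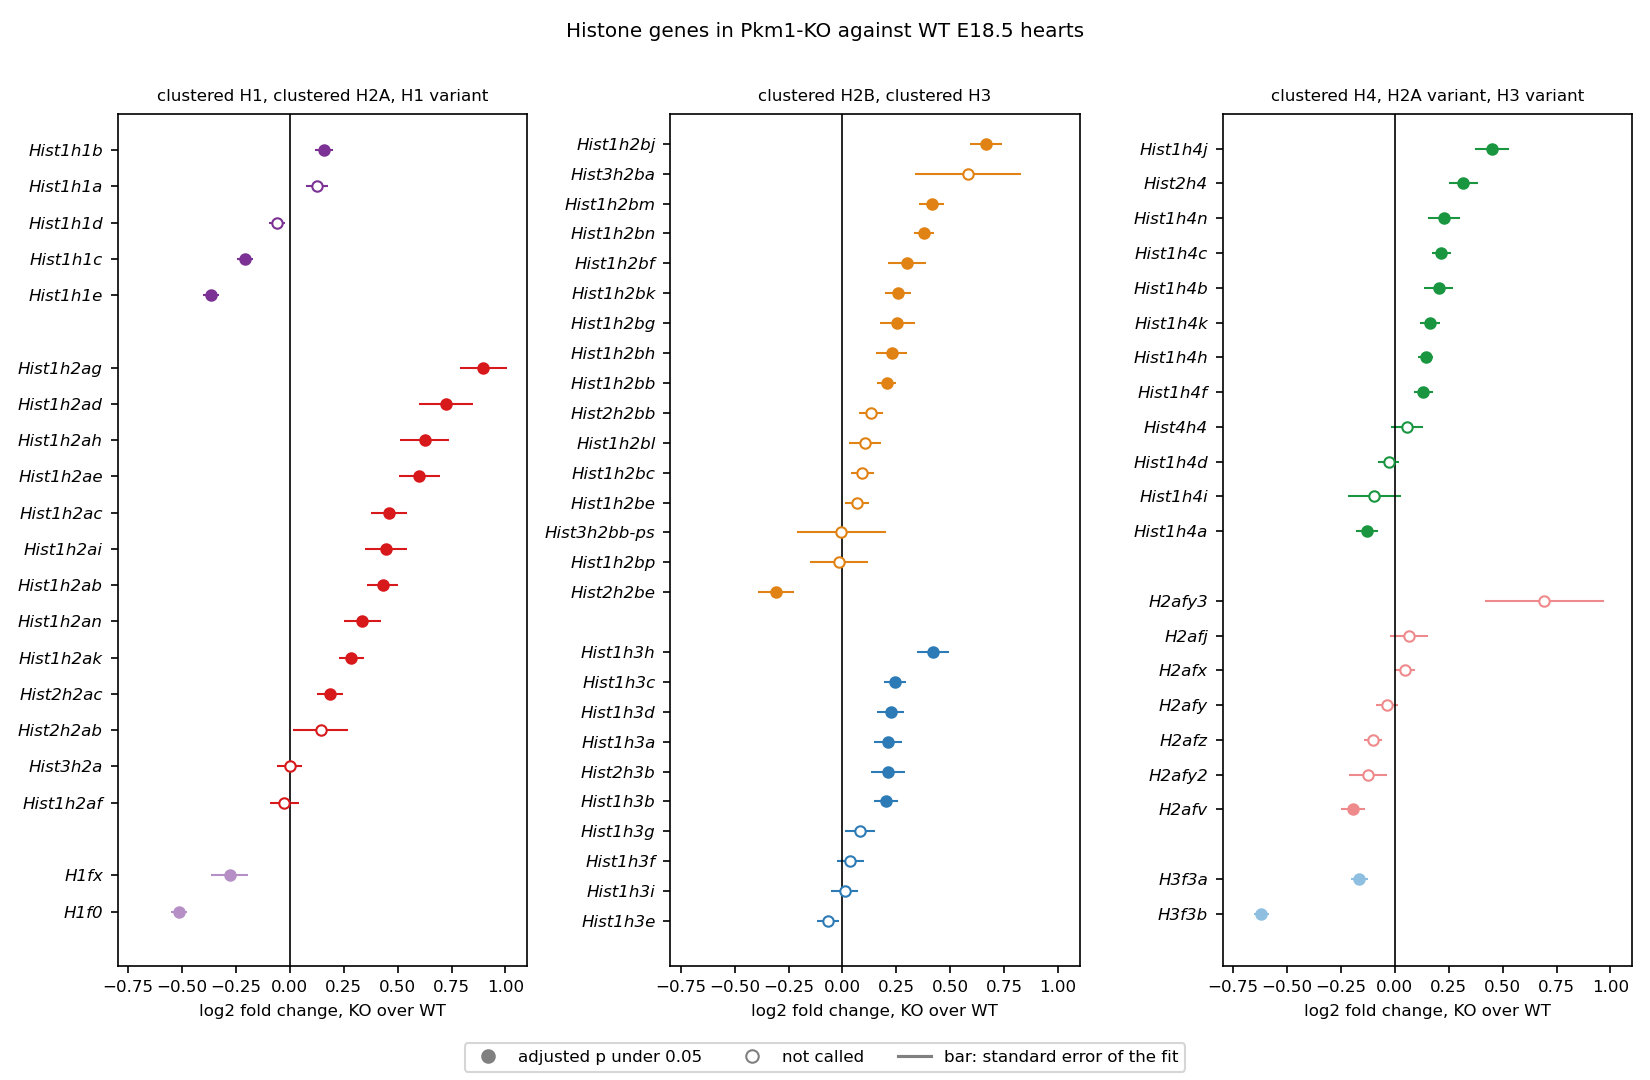
Log2 fold change of each of the 67 histone genes in KO over WT hearts, with the standard error of the fit as bars and filled points for genes past an adjusted p of 0.05. Clustered H2A genes lie furthest to the right, up to 0.90 for *Hist1h2ag*, and *H3f3b* and *H1f0* furthest to the left, at -0.62 and -0.51.

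H2A genes moved most: 10 of 13 rose, none fell and the median was 0.43, or 0.37 without WT c. *Hist1h2ag* (chr13:22042460-22042944) was at 9.56, 9.19 and 6.57 CPM in the WT libraries a, b and c and at 16.5, 16.2 and 14.9 CPM in KO. The groups lay apart, and WT c was the lowest library. Its fold was 1.86, a log2 fold change of 0.90 ± 0.11 (SE) with an adjusted p of 4.5e-07, and without WT c the log2 value was 0.76. *Hist1h2ad* behaved likewise, at 7.30, 7.25 and 4.93 CPM in WT and 11.7, 10.04 and 10.7 in KO. That was a log2 fold change of 0.72 ± 0.13 (adjusted p = 8.5e-05), and 0.57 without WT c, again the lowest library.

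*Hist1h2ah* did not lean on that library: it was at 6.08, 6.63 and 7.16 CPM in WT and 9.64, 10.2 and 10.7 in KO, where WT c was the highest of the 3 WT values. It rose 1.54-fold, by 0.63 ± 0.11 on the log2 scale, and by 0.68 without WT c. *Hist1h2ae* was at 11.4, 9.75 and 9.86 CPM in WT against 15.3, 15.2 and 16.4 in KO, a 1.52-fold rise (log2 0.60 ± 0.09, adjusted p = 1.8e-05). The next were *Hist1h2ac* at 0.46, *Hist1h2ai* at 0.45 and *Hist1h2ab* at 0.43. *Hist1h2ak*, the H2A gene with the highest level per kilobase of annotated exon (151 CPM per kb), was at 47.9, 53.9 and 59.1 CPM in WT and 68.2, 62.7 and 64.7 in KO, a log2 fold change of 0.29 ± 0.06 (adjusted p = 6.1e-04), and *Hist1h2an* (0.34) and *Hist2h2ac* (0.19) completed the 10. *Hist2h2ac* lost its call in 6 of the 14 alternatives, among them 5 that left out 1 library each. The 3 H2A genes without a call were *Hist1h2af* (log2 -0.03 ± 0.07), *Hist3h2a* (-0.00 ± 0.06) and *Hist2h2ab* (0.14 ± 0.13).

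Among the 16 H2B genes 8 rose, 1 fell and 7 did not pass, with a median log2 fold change of 0.22. *Hist1h2bj* (chr13:22043214-22043676) stood out, with 20.9, 24.5 and 24.0 CPM in WT and 33.9, 36.1 and 40.3 in KO. Every KO library lay well above every WT library, and the rise was 1.59-fold (log2 0.67 ± 0.07, adjusted p = 8.2e-08). *Hist1h2bn*, the H2B gene with the highest level per kilobase of annotated exon (227 CPM per kb over the 6 libraries), was at 69.9, 77.1 and 79.0 CPM in WT and 96.8, 95.8 and 100.9 in KO. It rose 1.30-fold (log2 0.38 ± 0.05, adjusted p = 6.1e-07). *Hist1h2bm* rose by 0.41 on the log2 scale, *Hist1h2bk* by 0.26 and *Hist1h2bb* by 0.20, each without overlap of the groups.

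*Hist1h2bg* lost its call without WT c, without KO b, without KO c and with DESeq2. It was at 68.4 and 66.6 CPM in WT a and WT b but 46.5 in WT c, against 67.7, 73.2 and 77.2 in KO, so the groups overlapped. Its log2 fold change of 0.26 ± 0.08 (adjusted p = 0.020) became 0.11 without WT c (adjusted p = 0.092). The remaining H2B rises were *Hist1h2bf* (0.30) and *Hist1h2bh* (0.23), each lost on leaving out some single libraries. *Hist2h2be*, on chromosome 3, was the H2B gene that fell. It was at 19.98, 19.9 and 18.2 CPM in WT and 14.3, 16.04 and 16.7 in KO, a log2 fold change of -0.31 ± 0.08 (adjusted p = 0.0058), and without KO a the adjusted p was 0.055. Its 2620-base model had no stem-loop match and carried a poly(A) signal at its end. Of the H2B genes without a call, *Hist2h2bb* (167.6 CPM per kb) had a log2 fold change of 0.13 ± 0.06, and 0.21 without WT c, where it passed (adjusted p = 4.2e-04). *Hist3h2ba*, at 21 counts in its lowest library, had a value of 0.58 ± 0.25 that did not pass, and *Hist1h2bc*, *Hist1h2be*, *Hist1h2bl*, *Hist1h2bp* and the pseudogene *Hist3h2bb-ps* lay between -0.01 and 0.11. Of these *Hist1h2bc* had 0.14 without WT c, where it passed (adjusted p = 0.029).

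H2A and H2B genes often sit head to head and share the stretch between their starts. Among the 56 genes, 10 H2A-H2B pairs and 1 H2B-H3 pair had starts less than 1000 bases apart. In 5 of the 10 pairs both partners rose: *Hist1h2ae* with *Hist1h2bg*, *Hist1h2ag* with *Hist1h2bj*, *Hist1h2ah* with *Hist1h2bk*, *Hist1h2ak* with *Hist1h2bn*, and *Hist1h2ad* with *Hist1h2bf*. *Hist1h2ag* and *Hist1h2bj*, whose starts are 269 bases apart, were the H2A and H2B genes with the highest fold changes of their types among called genes. In the other pairs at most 1 partner rose. *Hist1h2ac* rose by 0.46 on the log2 scale and *Hist1h2bc*, 250 bases away, had 0.09 ± 0.05 and did not pass. *Hist2h2ac* rose by 0.19 while *Hist2h2be*, 238 bases away, fell by 0.31. Differences between partners were not themselves tested.

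Of the 10 H3 genes 6 rose and none fell, with a median of 0.21. *Hist1h3h* rose the most, from 20.2, 20.5 and 17.5 CPM in WT to 25.4, 25.2 and 27.5 in KO (log2 0.42 ± 0.08, adjusted p = 1.1e-04). *Hist1h3c* was at 57.5, 56.5 and 61.0 CPM in WT and 65.9, 68.7 and 72.3 in KO, a log2 fold change of 0.24 ± 0.05 (adjusted p = 5.6e-04). Groups of both genes lay apart. *Hist1h3d*, *Hist1h3a*, *Hist2h3b* and *Hist1h3b* rose by 0.20 to 0.22, and each lost the call when at least 1 of the 6 libraries was left out. *Hist2h3b* was the weakest of them, with overlapping groups and a call that was also lost with DESeq2 (adjusted p = 0.11). *Hist1h3e* (-0.07), *Hist1h3f* (0.04), *Hist1h3g* (0.08) and *Hist1h3i* (0.01) did not pass. In *Hist1h3f* WT c was at 68.1 CPM, above all 3 KO libraries, and without it the log2 fold change was 0.13 with an adjusted p of 0.038.

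Of the 12 H4 genes 8 rose and 1 fell, with a median of 0.15, the lowest of the 4 core types. *Hist1h4h* (chr13:23531050-23531519) had the highest level per kilobase of all clustered genes, 398.5 CPM per kb over the 6 libraries. It was at 179.6, 183.7 and 170.5 CPM in WT and 194.1, 203 and 192.9 in KO, a rise of 0.14 ± 0.04 on the log2 scale (adjusted p = 0.0037) with no overlap of the groups. *Hist1h4k*, the next by level at 240.7 CPM per kb, and *Hist1h4f*, at 182 CPM per kb, rose by 0.16 and 0.13. *Hist1h4f* lost its call in 5 alternatives and *Hist1h4k* in 1. *Hist1h4j* rose the most of the H4 genes, from 32.5, 30.2 and 24.6 CPM in WT to 36.0, 40.6 and 43.3 in KO (log2 0.45 ± 0.08, adjusted p = 8.3e-05). *Hist2h4* (0.32) and *Hist1h4c* (0.22) also rose in every alternative. *Hist1h4n* (0.23) and *Hist1h4b* (0.20) had overlapping groups and lost the call in 4 and 5 alternatives, for *Hist1h4b* with DESeq2 among them. Without WT c *Hist1h4n* had 0.14 (adjusted p = 0.088) and *Hist1h4b* 0.30. *Hist1h4a* fell, from 82.4, 82.7 and 92.5 CPM to 81.1, 79.3 and 74.7 (log2 -0.13 ± 0.05, adjusted p = 0.047), a call that 7 of the 14 alternatives did not give, among them the fit without WT c (-0.08, adjusted p = 0.19). *Hist1h4d* (-0.03), *Hist1h4i* (-0.10) and *Hist4h4* (0.06) did not pass.

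The linker histone genes divided. *Hist1h1e*, the gene of H1.4, was at 195.3, 197.1 and 200.6 CPM in WT and 149.1, 162 and 149 in KO. The groups were far apart against a WT range of a few CPM, and the gene fell 1.29-fold (log2 -0.37 ± 0.04, adjusted p = 1.7e-08), the smallest adjusted p of any clustered gene. *Hist1h1c*, the gene of H1.2, was at 225.3, 232.5 and 215.1 CPM in WT and 189.3, 204.4 and 190.4 in KO (log2 -0.21 ± 0.04, adjusted p = 1.2e-04). Both fell in every alternative. *Hist1h1b*, the gene of H1.5, moved the other way, from 75.8, 75.1 and 75.1 CPM to 85.4, 82.7 and 84.2 (log2 0.16 ± 0.04, adjusted p = 0.0060). *Hist1h1a*, the gene of H1.1, was at 52.7, 50.8 and 51.4 CPM against 54.8, 57.7 and 56.4 and did not pass (log2 0.12 ± 0.05, adjusted p = 0.063), although the groups did not overlap. *Hist1h1d* (-0.06 ± 0.04) did not pass either. The annotated 3′ end of *Hist1h1e* overlaps the 5′ end of *Hist1h2be* on the same strand. Of the 50-base words of *Hist1h1e* 23.8% also occur in *Hist1h2be*, which did not pass (0.07 ± 0.05).

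**Figure D2:**
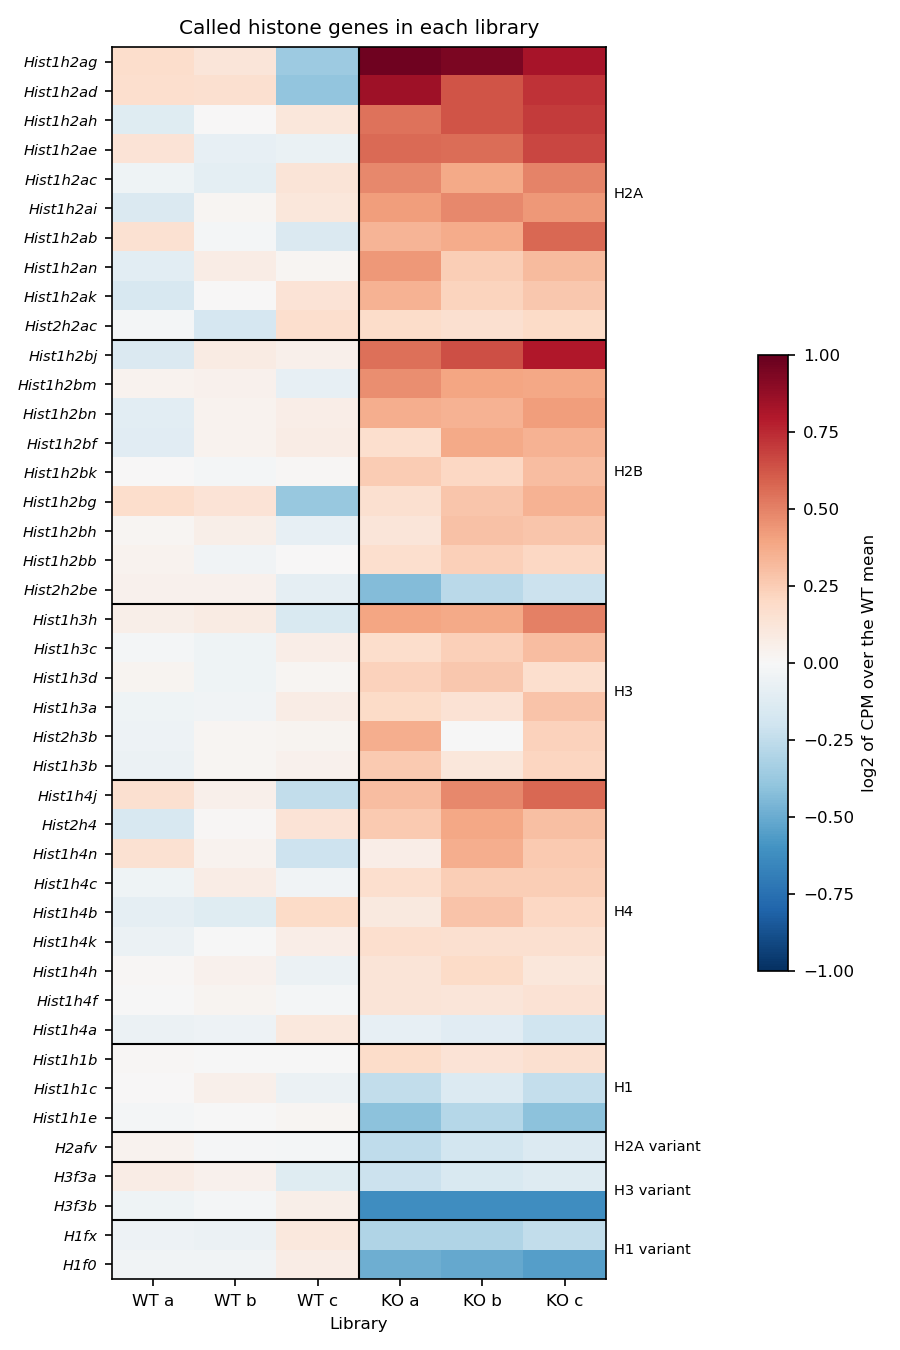
Each called histone gene (rows, by type) in each library (columns), as log2 of its CPM over the mean of the 3 WT libraries, from -1 (blue) to 1 (red). WT c is low for *Hist1h2ag*, *Hist1h2ad* and *Hist1h2bg* and high for several other genes, and the 3 KO columns resemble each other.

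The variant genes fell or did not pass. *H3f3b*, 1 of the 2 genes of H3.3, was at 246.1, 250.9 and 264.2 CPM in WT and 165.2, 165.1 and 164.6 in KO. The KO libraries lay within 1 CPM of each other and far below WT, a 1.54-fold fall (log2 -0.62 ± 0.03, adjusted p = 8.1e-14). *H3f3a*, the other, was at 255.8, 251.1 and 223.2 CPM in WT and 209.6, 219.3 and 223.2 in KO. Its lowest WT library, WT c, was level with KO c, and the fall was smaller (log2 -0.16 ± 0.04, adjusted p = 0.0029), or -0.22 without WT c.

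*H1f0*, the linker histone of resting cells, was at 247.5, 248.2 and 267 CPM in WT and 181.1, 178.8 and 173.7 in KO, a 1.43-fold fall (log2 -0.51 ± 0.04, adjusted p = 9.1e-12). *H1fx*, the gene of H1.10, was at 15.6, 15.5 and 17.3 CPM in WT and 13.1, 13.1 and 13.6 in KO (log2 -0.28 ± 0.09, adjusted p = 0.015). Its call was lost without WT c (adjusted p = 0.055), without KO a and with DESeq2. Both H1 variants and both H3.3 genes were thus lower in all 3 KO libraries than in any WT library, although for *H3f3a* WT c and KO c were almost level.

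Among the 7 H2A variants, with a median log2 fold change of -0.03, only *H2afv*, 1 of the 2 genes of H2A.Z, fell. It was at 46.9, 45.4 and 45.2 CPM in WT and 38.4, 40.4 and 41.6 in KO (log2 -0.19 ± 0.06, adjusted p = 0.0093), and without KO a the adjusted p was 0.065. Its partner *H2afz* was at 99.2, 96.0 and 101.8 CPM against 92.6, 89.3 and 94.2 and did not pass (log2 -0.10 ± 0.04, adjusted p = 0.065). *H2afx*, whose product marks DNA breaks when phosphorylated, stood at 91.6 ± 6.06 CPM in WT and 94.5 ± 1.12 in KO (log2 0.05 ± 0.05). It is the variant with a stem-loop message as well as a polyadenylated one. The macroH2A genes *H2afy* (-0.03 ± 0.05) and *H2afy2* (-0.13 ± 0.09) and *H2afj* (0.06 ± 0.09) did not pass. The pseudogene *H2afy3*, at 17 counts in its lowest library and on the strand opposite *Pvt1*, had 0.69 ± 0.28 (adjusted p = 0.059).

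Summed over its members, the clustered class made up 0.270 to 0.276% of all counts in WT and 0.299 to 0.305% in KO. In CPM the sum was 2732, 2776 and 2829 in WT and 2943, 2994 and 2981 in KO, a ratio of 1.07 ± 0.02 (KO mean over WT mean, with the SD carried over). Sums of the 4 core types were higher in KO and the H1 sum was lower. H2A sums were 290 ± 11.8 in WT and 352 ± 7.94 in KO (ratio 1.22), and H2B sums were 560 ± 6.67 and 655 ± 11.6 (ratio 1.17). The ratios for H3 and H4 were 1.09 and 1.08. Clustered H1 sums were 699 ± 6.86 in WT and 633 ± 15.3 in KO (ratio 0.90). With 3 libraries against 3 no exact test of a single sum can go below 0.10, so none was made. None of these sums overlapped between the groups, though in H3 the highest WT library (WT c, 422.3 CPM) came close to the lowest KO library (424.3). Sums over the 11 variants were 1097 ± 15.1 in WT and 891 ± 5.48 in KO (ratio 0.81), but those of the 7 H2A variants alone overlapped between the groups, at 330 ± 11.8 and 318 ± 3.82 (ratio 0.96).

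**Figure D3:**
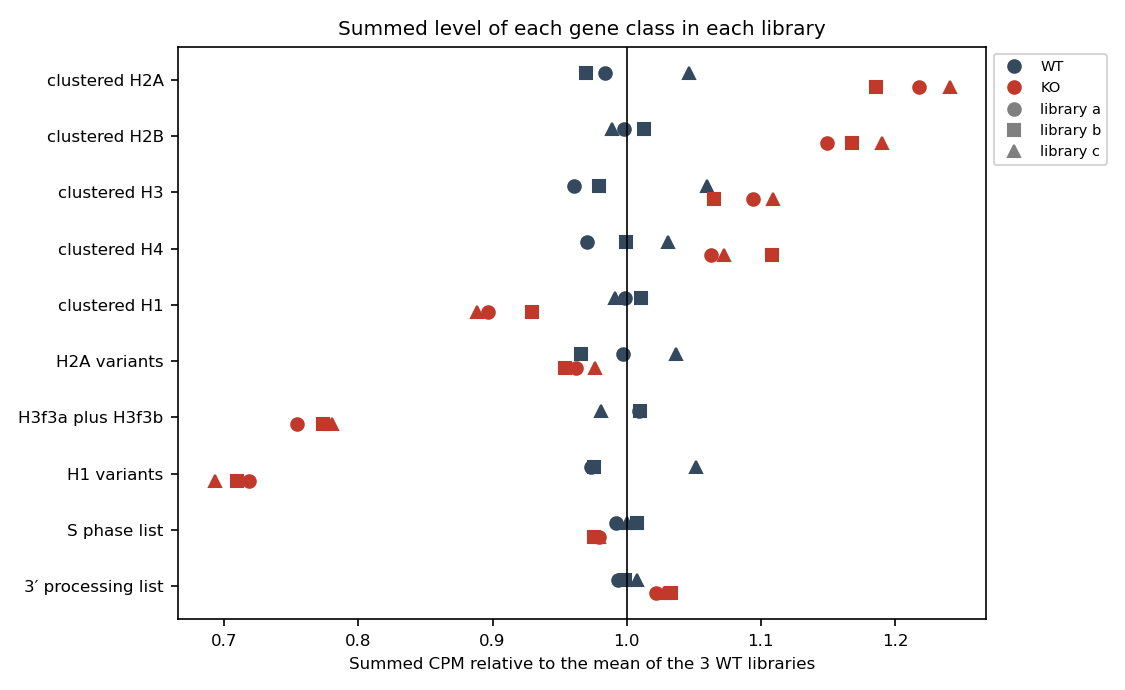
Summed CPM of each gene class in each library, divided by the mean of the 3 WT libraries. KO libraries (red) lie to the right of WT for H2A, H2B, H3 and H4 and to the left for H1, H3f3a plus H3f3b (ratio 0.77) and the H1 variants (ratio 0.71), while the S phase list stays near 1 (ratio 0.98).

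Because these values come from the same library, ratios of the classes do not depend on library scaling. H3.3 messages (*H3f3a* plus *H3f3b*) stood at 1.31, 1.29 and 1.15 times the clustered H3 sum in WT libraries and at 0.860, 0.906 and 0.878 times it in KO. *H1f0* stood at 0.354, 0.351 and 0.385 of the clustered H1 sum in WT and at 0.289, 0.275 and 0.280 in KO. The 2 H2A.Z genes together stood at 0.500 ± 0.014 of clustered H2A in WT and 0.375 ± 0.004 in KO. Clustered H1 over the clustered core sum was 0.336 ± 0.010 in WT and 0.270 ± 0.007 in KO. In each of these the lowest WT library lay above the highest KO library. They compare read counts and not molecules, since the annotated messages differ in length.

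**Figure D4:**
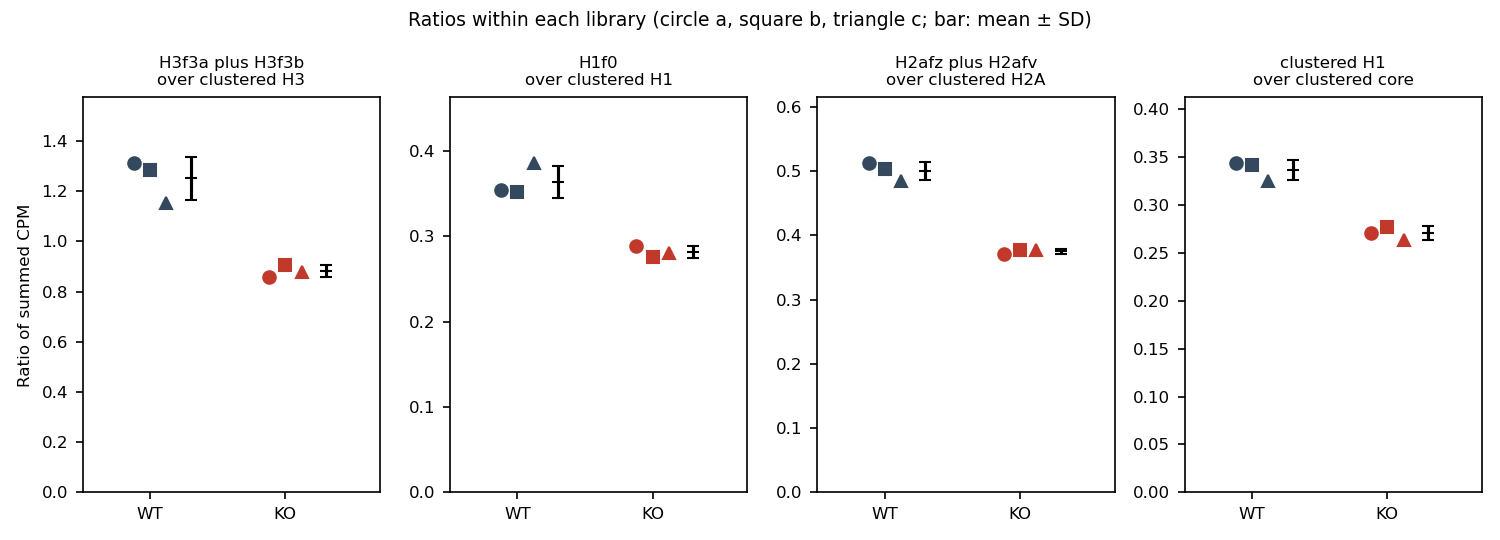
Ratios of summed CPM within each library, with the mean and SD of the 3 libraries beside them and axes from 0. The means go from 1.25 to 0.881 for H3.3 genes over clustered H3, from 0.364 to 0.281 for *H1f0* over clustered H1, from 0.500 to 0.375 for H2A.Z genes over clustered H2A and from 0.336 to 0.270 for clustered H1 over the core.

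Clustered genes differed in how far the annotated message runs past the stem-loop, and the calls were spread unevenly along that length. Of 20 genes whose message ends within 200 bases of the stem-loop, 18 rose and none fell, with a median log2 fold change of 0.25. Of 16 genes whose message runs further, 6 rose and 2 fell, with a median of 0.05. The 2 were *Hist1h1c* and *Hist1h1e*. The 20 genes without a match in the annotated message had 9 higher and 2 lower (*Hist1h4a*, *Hist2h2be*), and several of their models cover the coding sequence alone, where the stem-loop cannot be seen. The limit of 200 bases was set after the values were seen; the genes nearest to it were *Hist3h2ba* at 169 bases and *Hist1h4i* at 330, neither of which passed. A poly(A) signal (AATAAA or ATTAAA) in the last 50 bases was annotated for 13 clustered genes, of which 4 rose and 3 fell (median 0.06), against 29 and 1 of the 43 without it (median 0.21). Those with the signal that rose were *Hist1h2ae*, *Hist1h4h*, *Hist1h4j* and *Hist2h4*, and those that fell were *Hist1h1c*, *Hist1h4a* and *Hist2h2be*. The gene that fell without the signal was *Hist1h1e*, which had the smallest adjusted p of any clustered gene. Of the 4 clustered genes in the table that are also known as polyadenylated messages, *Hist1h1c* and *Hist2h2be* fell, and *Hist1h2bc* and *Hist1h2be* did not pass. These groups also differ in histone type and read sharing, whose part was not tested.

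**Figure D5:**
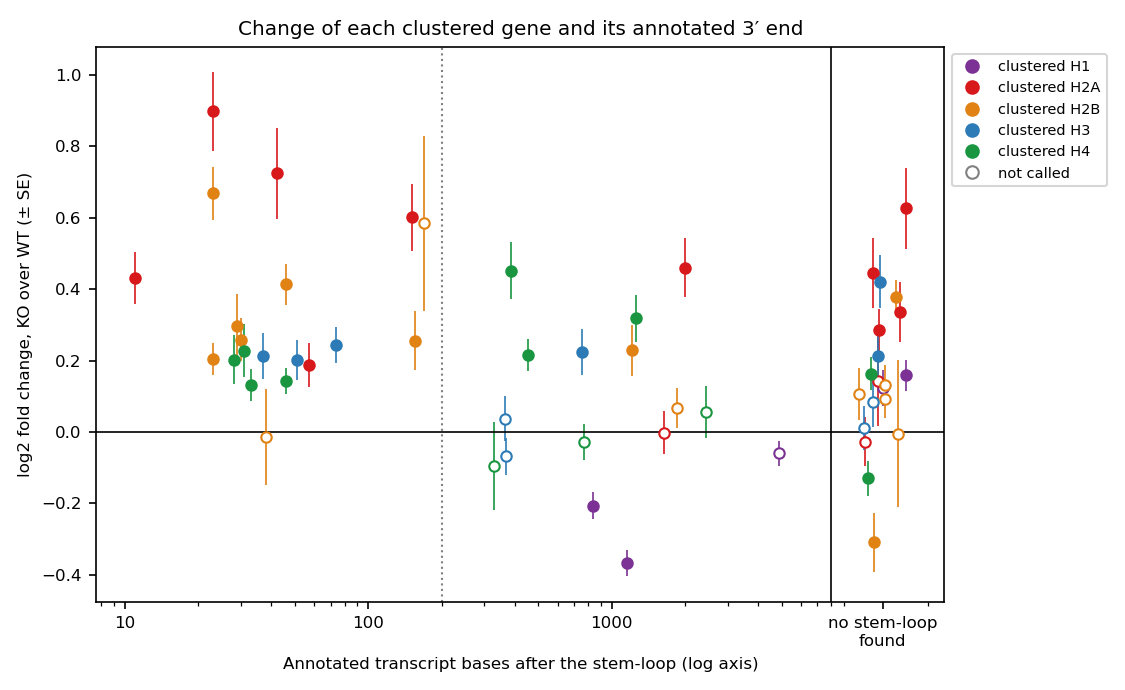
Log2 fold change (± SE) of each clustered gene against the annotated transcript bases behind its stem-loop on a log axis, coloured by type, with genes lacking a match spread at random in the strip on the right. To the left of the dotted line at 200 bases 18 of 20 genes are filled and above 0, and to its right the points scatter on both sides of 0 down to *Hist1h1e* at -0.37.

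RefSeq promoters matched 50 of the 56 clustered genes and 9 of the 11 variants. CCAAT on either strand was present in all 13 H2A, 13 H2B, 8 H3 and 5 H1 promoters that matched and in 3 of 11 H4 promoters, against 37.4% of 32851 mouse promoters of this length. The octamer was present in 6 of the 13 H2A and 6 of the 13 H2B promoters and in no H1, H3 or H4 promoter, against 1.74% of all. *Hist1h2be* had more than 1 window and was counted once, as holding the octamer, although only 1 of its windows held it. Windows of head-to-head pairs overlap and hold the same boxes, so their counts are not independent. Of 42 clustered genes with a CCAAT box 25 rose and 3 fell (median 0.21), and of 8 without one, all H4, 6 rose and none fell (median 0.15). Within H2A and H2B, 9 of 12 genes with the octamer rose (median 0.26) and 9 of 14 without it (median 0.32).

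Most clustered genes lie in the *Hist1* cluster (chr13:21715763-23764406), where 30 of 46 rose and 3 fell. A gap of 1487374 bases divides it. The stretch at lower coordinates had 14 of 18 higher and none lower (median 0.31), and the stretch at higher coordinates, which holds all H1 genes except *Hist1h1b*, had 16 of 28 higher and 3 lower (median 0.17). The *Hist2* cluster on chromosome 3 had 3 of 6 higher and 1 lower. In the *Hist3* cluster on chromosome 11 none of 3 passed, and *Hist4h4*, alone on chromosome 6, did not pass. Within *Hist3* the precision differed, from a standard error of 0.06 for *Hist3h2a* to 0.25 for *Hist3h2ba*, which passed with the exact test of edgeR and without WT b.

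Many copies within a type share long identical stretches. The sources used here do not give how reads that map to several copies were counted. Of the 50-base words of each gene's transcripts, between 0% and 93.9% (*Hist1h3h*) also occur in another annotated gene. Counts of single genes with high shares, such as *Hist1h2ag* (78.9%), *Hist1h2ah* (90.7%) and *Hist1h2bn* (86.4%), are therefore uncertain as to the copy. Among 33 clustered genes with less than 50% of words shared 16 rose and 4 fell (median 0.14), and among 23 with more 17 rose and none fell (median 0.26). *Hist1h2ac* with 14.1% shared, *Hist2h4* with 1.01% and *Hist1h1b* with none rose, and *Hist1h1c* (8.54%) and *Hist2h2be* (none) fell. Clustered genes are short and have 1 exon for the most part. Other genes with less than 1000 exonic bases had 6.99% higher and 18.4% lower (386 genes, median -0.06), and other genes with 1 exon had 12.2% higher and 20.7% lower (352 genes, median -0.04).

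Genes that act on histone messages and proteins were taken from lists. Of 28 genes of histone message 3′ processing and decay 8 rose (28.6%) and 3 fell (10.7%), with a median of 0.11. Over all genes tested 14.6% rose and 15.7% fell. *Slbp*, the stem-loop binding protein, was at 27.2, 25.5 and 24.8 CPM in WT and 27.3, 29.8 and 29.8 in KO and did not pass (log2 0.17 ± 0.07, adjusted p = 0.064). *Npat*, the activator of histone genes in S phase, fell from 61.7 ± 2.67 to 52.5 ± 2.43 CPM (log2 -0.23 ± 0.05, adjusted p = 0.0012). *Upf1*, a helicase of message decay including that of histone messages, rose (0.20 ± 0.04), *Zcchc6*, which adds uridines to histone messages, fell (-0.23 ± 0.04), and *Sympk*, the scaffold of the cleavage complex, rose (0.15 ± 0.04).

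Of 34 histone chaperone and deposition genes 5 rose and 5 fell (median -0.03). Each share was 14.7%, near the 14.6% higher and 15.7% lower over all genes tested. *Cabin1* and *Ubn2*, of the HIRA complex that deposits H3.3, rose by 0.19 and 0.13 on the log2 scale. *Atrx*, of a second route of H3.3 deposition, fell by 0.12 and *Spty2d1* by 0.40. *Hira* (0.11), *Ubn1* (-0.003) and *Daxx* (-0.08) of the same list did not pass. Of 58 genes of S phase and DNA replication 4 rose (6.90%), 3 fell (5.17%) and 51 did not pass (median -0.02). The ribonucleotide reductase subunit *Rrm2* fell from 138.7 ± 3.39 to 123.6 ± 1.82 CPM and the replication kinase *Cdc7* rose from 16.6 ± 0.79 to 21.4 ± 0.21. *Rpa3* rose and *Rpa1* fell, at 0.29 and -0.18. Summed, the S phase list was at 2108 ± 16.7 CPM in WT and 2062 ± 4.35 in KO. The clustered core sum stood at 0.987 ± 0.023 of that S phase sum in WT and at 1.13 ± 0.01 in KO.

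Other values moved with the groups. *Rn45s*, the ribosomal precursor RNA that depletion removes in part, was at 22349, 22397 and 25402 CPM in WT and 27446, 26560 and 26805 in KO (log2 0.20 ± 0.03, adjusted p = 3.1e-06). WT c was nearest to KO, as it was for the H2A, H3 and H4 sums. For the H2B sum it was the WT library furthest from KO. Of the other 4 RNAs without a poly(A) tail in the table none passed. The marker counts that follow stand beside 14.6% higher and 15.7% lower over all genes tested. Cardiomyocyte markers were lower in 9 of 12 and higher in 1 (summed 132260 to 136360 CPM in WT and 124590 to 126050 in KO), and fibroblast markers lower in 6 of 13 (4877 to 4906 and 4538 to 4616). Atrial markers were higher in 3 of 7 (614 to 623 and 1027 to 1049), and epicardial markers in 4 of 10 (163 to 166 and 181 to 193). Endothelial markers were higher in 3 and lower in 6 of 16 (1832 to 1847 and 1809 to 1838). Immune markers were lower in 3 of 16 (86.7 to 90.3 and 80.2 to 89.0). Of erythroid markers 5 were in the table, without the globins, and 2 were higher and 1 lower (193 to 209 and 291 to 301), *Tfrc* making most of the sum. The part of these values in the histone differences was not tested.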

How the data were processed

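Ventricular total RNA of 3 WT and 3 *Pkm1*-KO embryos was depleted of ribosomal RNA (KAPA RiboErase) and sequenced as paired 150-base reads. Per the labels and the study's methods, the authors trimmed reads with cutadapt 1.18, aligned them to mm10 with HISAT2 and used StringTie. They deposited whole-number counts per gene. The counting program, its strand setting and its use of reads with several matches are not given in the sources used here. The table also holds the authors' edgeR fold changes and p-values, which were not used.

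Genotypes came from the column names, which give no replicate number, so libraries are called a to c in column order, and p-values measure the spread between these libraries. Counts were filtered (filterByExpr), scaled by TMM and tested with edgeR 4.0.16 (quasi-likelihood, KO against WT, Benjamini-Hochberg over all 13804 genes, threshold 0.05). The test was also run on counts simulated with the spread fitted to these data. That run cannot show how embryo sex or the distance of WT c affect the calls. Alternatives were RLE scaling, library totals, DESeq2 1.42.0, the exact test of edgeR and other filters. Further ones left X and Y genes out of the fit, histone genes out of the TMM factors only, or each library in turn.

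Members and gene lists were chosen with earlier results of these data known. Genes were named by a fixed rule: the 20 clustered genes with the smallest adjusted p, the 5 with the highest CPM per kb of merged GENCODE M21 exons, 3 uncalled genes with large values, all variants and up to 4 called genes of a list. Other members are named to account for all 67, and some uncalled genes of a list beside its called ones. Models that hold only coding sequence or long 3′ ends shift levels per kb.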

Additional observations from a re-analysis of the deposited data

How the results depend on the processing

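No paired analysis was possible because replicate numbers are absent from the column names. Counts of called genes were within 1.5 times over all genes and for clustered genes that rose in every setting. Leaving out 1 library at a time gave 1704 to 2306 lower and 1479 to 2013 higher genes over the whole table, 24 (without KO c) to 34 clustered genes higher and 2 (without KO a) to 4 lower, and 3 (without KO a) to 6 variants lower and 0 to 1 higher, with a summed clustered ratio of 1.06 to 1.08. The number of variants called higher went from 0 to 1 (*H2afy3*) with library totals in place of TMM, with the exact test of edgeR and with a filter of 10 counts in every library, against an adjusted p of 0.059 in the reported test. Library totals moved the summed clustered ratio to 1.11. Small values changed sign for *H2afx* (-0.011 to 0.080 over the fits without 1 library, the lowest without WT b) and *H2afy* (-0.064 to 0.010 likewise, the highest without WT c, and 0.013 with library totals). DESeq2 called 28 clustered genes higher and 3 lower. Among the 38 named histone genes, 509 comparisons with an alternative kept direction and side of the threshold, 11 lost the call, 9 gained it and 3 changed sign. The cause of these shifts was not tested. Depth limits *H2afy3*, *Hist3h2ba* and *Hist3h2bb-ps* most, with 17, 21 and 39 counts in the lowest library.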
